A study of Caenorhabditis elegans with 16 samples.

Results

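The genes described here are the lysozymes and saposin-like proteins of C. elegans, taken as every gene of the count table whose symbol begins lys-, ilys- or spp-. The rule found 46 of the 20447 genes: 10 protist-type lysozymes (lys), 6 invertebrate-type lysozymes (ilys) and 30 saposin-like genes (spp). A 47th symbol of the annotation, spp-27, was not analysed here. Poly-A RNA was sequenced from whole day 1 adults of 4 strains, with about 1000 animals per sample and 2 replicates per strain and temperature. The strains were daf-16(mu86); ets-4(rrr16), called daf-16 doubles below, pqm-1(ok485); ets-4(rrr16), called pqm-1 doubles, ets-4(rrr16), and wild-type N2 (wt). All 3 mutant strains therefore carried the same ets-4 allele on chromosome X. For the 4 °C groups, growth at 20 °C was followed by an adaptation step (10 °C, 2 h) and then 24 h of cold at 4 °C. Those of the 20 °C groups were grown at 20 °C, and whether they were matched in hours of age is not given in the sources used here. All were fed the E. coli strain OP50.

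Lysozymes cut the peptidoglycan of bacterial cell walls, and saposin-like proteins of the caenopore kind insert into bacterial membranes and open pores. Nematodes live on bacteria, so the same proteins serve digestion of food and defence against pathogens, and most of them are made in the intestine. Expression of several members is known to depend on the FOXO transcription factor DAF-16, of which lys-7, lys-8, spp-1 and spp-12 are known targets. PQM-1 is a zinc finger factor that works with or against DAF-16, and ETS-4 is an ETS-domain factor active in the intestine.

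Many members sit in small clusters, given here in WBcel235 coordinates of the Ensembl annotation. The protist-type genes lys-1, lys-2 and lys-3 lie side by side on chromosome V, from 10277904 to 10283544, and lys-4, lys-5 and lys-6 on chromosome IV, from 11621429 to 11627947. The caenopore genes spp-2, spp-3, spp-4, spp-5 and spp-6 lie on chromosome X from 7314969 to 7320354. The most abundant invertebrate-type lysozyme gene, ilys-5 (WBGene00017691, X, 6533490 to 6536840, minus strand), ends 10.8 kb from ets-4 itself. The gene spp-3 lies 792.3 kb from ets-4. For these genes the ets-4 allele and DNA linked to it cannot be told apart. Of the members called in a double below, lys-8 lies 5562.7 kb from pqm-1 on chromosome II. The gene spp-15 lies 4500.3 kb from daf-16 on chromosome I. Whether DNA linked to those alleles differed was not tested.

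The total count per library ranged from 36049588 to 43039567 at 4 °C and from 32046029 to 48770269 at 20 °C. Levels are given as CPM, counts scaled to a fixed total per library with TMM library sizes. Differences were tested with edgeR's quasi-likelihood test, and a gene is called when its adjusted p (Benjamini-Hochberg over all genes tested) is under 0.05. The standard errors (SE) printed with log2 fold changes are approximate. Libraries with the same replicate number deviated together from their group means, in each of the 28 pairs of groups (r from 0.252 to 0.769 across 15775 genes, which are not independent replicates). The fit without this pairing is the first value given, and the fit with the replicate number as a block is given where it changes a call. The mutated genes served as a check of the labels. At 4 °C, ets-4 had 7.35 and 12.8 CPM in daf-16 doubles, 11.5 and 11.8 CPM in pqm-1 doubles, 4.35 and 8.83 CPM in ets-4 and 60.3 and 84.6 CPM in wt. At 20 °C the order was the other way, with 76.9 to 202.0 CPM in the mutant libraries and 25.9 and 26.3 CPM in wt. Counts cover all exons of the gene, including any outside the altered part. Why the order differed between the temperatures was not tested. Because of this order, the text on strain comparisons at 20 °C calls the mutants libraries labelled with their genotype. The cold comparisons and the figures use the same 20 °C libraries under the short strain names. The daf-16 transcript was lowest in daf-16 doubles at 4 °C, at 104 and 116 CPM against 247 and 226 CPM in ets-4 (log2 fold change -1.11, SE 0.09, edgeR adjusted p = 0.015). At 20 °C it had 107 and 175 CPM in the libraries labelled as daf-16 doubles, 163 and 185 CPM in those labelled ets-4 and 166 and 155 CPM in wt. Replicate 2 of the libraries labelled as daf-16 doubles thus lay within the range of ets-4 and above wt, and the difference from ets-4 was not called (log2 fold change -0.31, SE 0.19, edgeR adjusted p = 0.452). The pqm-1 transcript had 150 and 143 CPM in pqm-1 doubles at 4 °C and 221 and 269 CPM in ets-4 (log2 fold change -0.76, SE 0.16, edgeR adjusted p = 0.459, and 0.0262 with the block). At 20 °C it had 5.98 and 16.2 CPM in the libraries labelled as pqm-1 doubles and 20.4 and 32.8 CPM in those labelled ets-4 (log2 fold change -1.27, SE 0.42, edgeR adjusted p = 0.263, and 0.0233 with the block).

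Of the 46 genes, 34 passed the filter on low counts over all 16 libraries (9 lys, 3 ilys, 22 spp), and 31 passed it at 4 °C (9 lys, 3 ilys, 19 spp). The 12 genes left out over 16 libraries had at most 25 reads in any library: lys-9, ilys-1, ilys-3, ilys-6, spp-6, spp-7, spp-9, spp-11, spp-21, spp-26, spp-29 and spp-30. The 4 °C fit also left out spp-12, spp-13 and spp-19. No read was counted for ilys-6 and spp-30 in any library, which allows up to 3 reads over the 16. The invertebrate-type lysozyme gene ilys-3, known for breaking down ingested bacteria, had 7 reads at most. A change in these members was not detectable at this depth.

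Per kb of exon, the most abundant saposin-like genes over the 16 libraries were spp-14, spp-5 and spp-17. Their mean levels were 727 CPM per kb for spp-14 (range 544 to 853), 556 for spp-5 (327 to 812), which encodes a pore-forming caenopore, and 535 for spp-17 (226 to 845). The ranges of these 3 genes overlapped, so their order is not firm. The invertebrate-type gene ilys-5 followed with 445 CPM per kb and the wide range of 80.2 to 803. The other members of its family were far below, with 4.34 CPM per kb for ilys-4 and 0.63 for ilys-2. Among protist-type lysozymes, lys-4 (216 CPM per kb), lys-1 (203) and lys-7 (170) led, again with overlapping ranges. The prosaposin-like gene spp-10 had the narrowest range of the 10 most abundant members, from 121 to 140 CPM per kb. Together the 46 genes took 0.119% to 0.285% of all counts in the libraries at 4 °C and 0.232% to 0.345% at 20 °C.

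**Figure D1:**
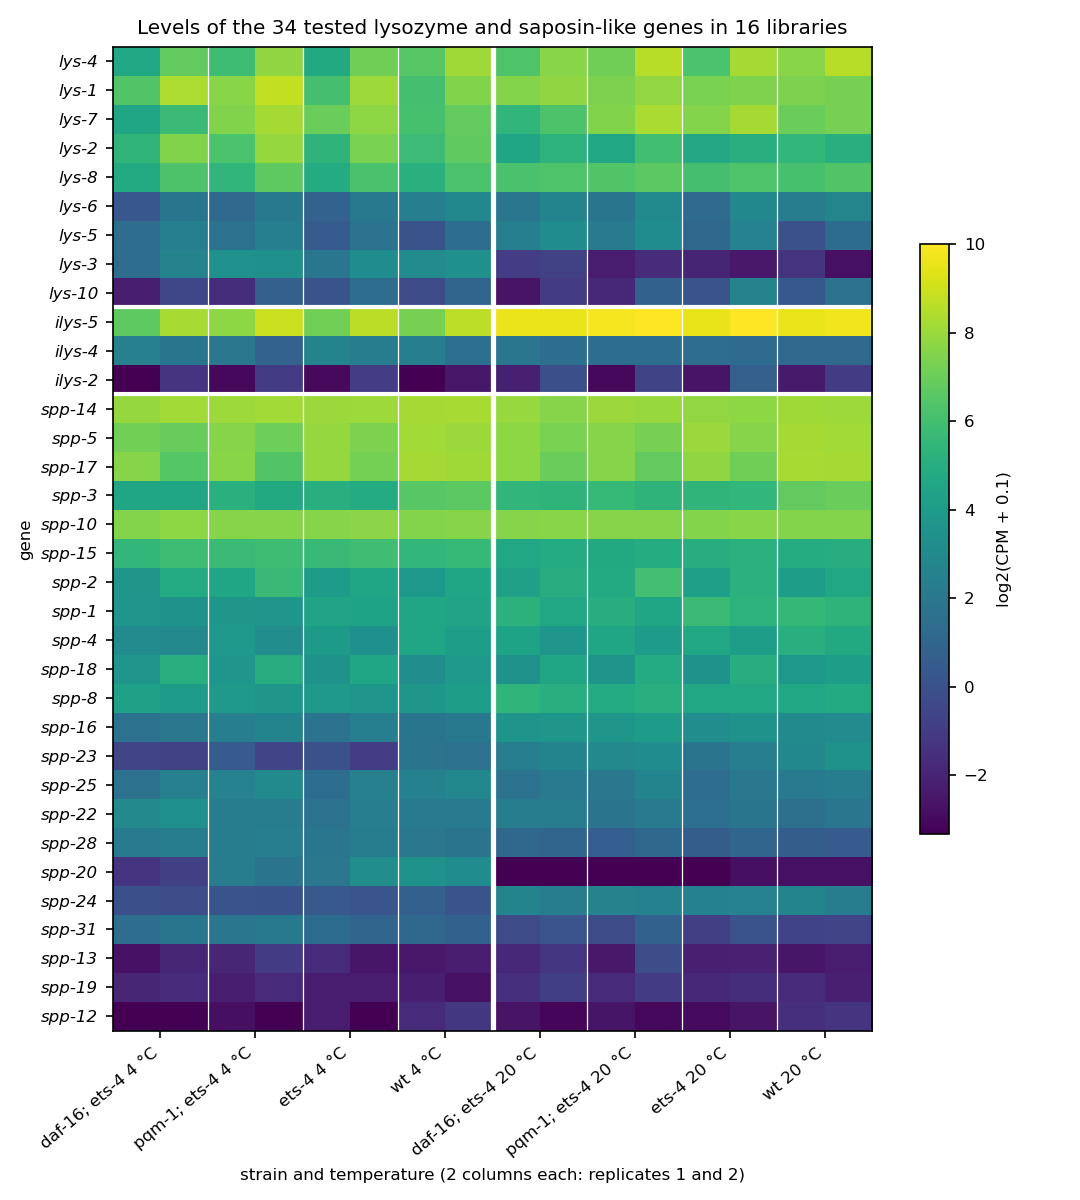
Heat map of log2(CPM + 0.1) for the 34 tested genes (rows, grouped as lys, ilys and spp and ordered by level per kb) in 16 libraries (columns, 4 °C left of 20 °C, replicates 1 and 2 side by side). The row of ilys-5 is higher at 20 °C, those of spp-20 and lys-3 are higher at 4 °C, and spp-10 stays between 121 and 140 CPM per kb.

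The cold comparison asks which members differed after 24 h at 4 °C from 20 °C in the same strain. In all 4 strains, 5 members rose at 4 °C: spp-20, lys-3, spp-31, spp-28 and spp-15. Of these, spp-20 passed the filter on low counts through its 4 °C libraries only. It therefore had to differ, and it is part of each count of rises below. In all 4 strains, 5 others fell: spp-23, spp-24, spp-16, spp-1 and spp-8. Both lists are from the fit without the block, and with the block ilys-5 and spp-4 also fell in all 4 strains. How many of all genes were called in 1 direction in all 4 strains was not counted, so these lists have no background beside them. In RNA of whole animals, a change in the share of a tissue and a change of a gene within that tissue cannot be told apart. In daf-16 doubles, 6 of 34 tested members rose and 8 fell, which is 41.2% beside 38.5% of the 15775 genes tested. In pqm-1 doubles 5 rose and 6 fell (32.4%, beside 37.1% of all genes), in ets-4 6 rose and 6 fell (35.3%, beside 33.3%), and in wt 5 rose and 5 fell (29.4%, beside 30.7%). These shares are near those of all genes. By direction, 19% of all genes rose and 19.5% fell in daf-16 doubles, 18% rose and 19% fell in pqm-1 doubles, 15% rose and 18.3% fell in ets-4, and 12.9% rose and 17.8% fell in wt. By family, 1 of 9 lys genes, 0 to 1 of 3 ilys genes and 9 to 12 of 22 spp genes were called in each strain. With the block, 6 members rose in each strain, while 14 fell in daf-16 doubles, 11 in pqm-1 doubles, 12 in ets-4 and 9 in wt, and the shares called were 58.8% (beside 54.3% of all genes), 50% (beside 51.7%), 52.9% (beside 44.4%) and 44.1% (beside 41.6%) in the same order. By direction with the block, 25.8% of all genes rose and 28.5% fell in daf-16 doubles, 25.9% rose and 25.8% fell in pqm-1 doubles, 21.3% rose and 23.1% fell in ets-4, and 19% rose and 22.6% fell in wt. The median log2 fold change of the tested members was -0.52 in daf-16 doubles, -0.21 in pqm-1 doubles, -0.39 in ets-4 and -0.15 in wt, beside medians of all genes from -0.04 to -0.02. The study's own rule, a change of at least 2-fold in both same-numbered replicate pairs after adding a pseudocount of 8, called 9 of the 46 members in daf-16 doubles (beside 14.9% of 20447 genes), 11 in pqm-1 doubles (13.9%), 8 in ets-4 (12.1%) and 8 in wt (11.5%).

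**Figure D2:**
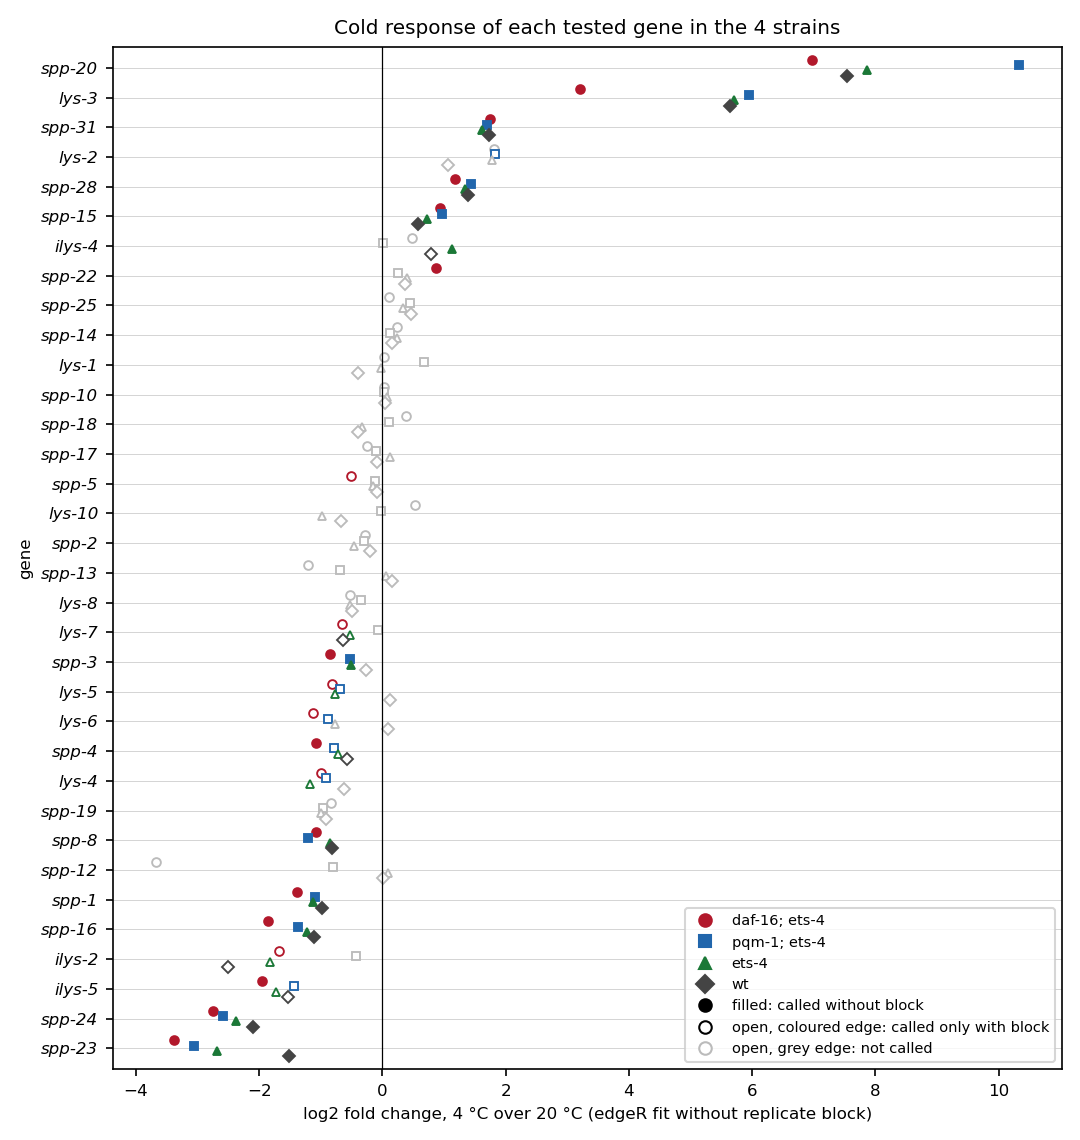
Log2 fold change of 4 °C over 20 °C (horizontal axis) for each of the 34 tested genes (rows, ordered by their mean) in daf-16 doubles, pqm-1 doubles, ets-4 and wt, where filled symbols were called without the replicate block, open coloured ones with it only, and grey ones in neither fit. At the top, the points of spp-20 in both doubles rest on 0 reads at 20 °C and depend on the fit's prior count, so only the bounds of at least 10.9-fold and at least 122-fold hold for them. Below it lys-3 lies between 3.21 and 5.94, and at the bottom spp-23 lies between -3.39 and -1.52.

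The largest rise was that of spp-20 (WBGene00005005, V, 6557615 to 6558203, minus strand), a saposin-like gene next to spp-26 and spp-19. In daf-16 doubles it had 0.31 and 0.47 CPM at 4 °C and 0 and 0 CPM at 20 °C. In pqm-1 doubles it had 4.71 and 3.43 CPM at 4 °C and 0 and 0 CPM at 20 °C. In ets-4 it had 3.82 and 9.54 CPM at 4 °C against 0 and 0.044 CPM at 20 °C, and in wt 11 and 8.71 CPM at 4 °C against 0.049 and 0.05 CPM at 20 °C. Thus every 4 °C library lay above every 20 °C library, and daf-16 doubles had the lowest level in the cold. Set against a floor of 3 reads over the 20 °C group, spp-20 was at least 10.9-fold higher at 4 °C in daf-16 doubles and at least 122-fold higher in pqm-1 doubles. In ets-4, where 2 reads were counted at 20 °C, the ratio was 305 with a 95% counting interval of 72.7 to 2185 (exact binomial, counting error only), and in wt it was 198-fold. The edgeR adjusted p was 0.00141 in daf-16 doubles, 4.08e-05 in pqm-1 doubles, 4.63e-05 in ets-4 and 4.23e-05 in wt. The gene passed the filter on low counts through its 4 °C libraries only, so a tested gene of this kind had to differ.

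The protist-type lysozyme gene lys-3 (WBGene00003092, V, 10282100 to 10283544, minus strand) rose next. It had 2.59 and 6.24 CPM at 4 °C and 0.43 and 0.51 CPM at 20 °C in daf-16 doubles. In pqm-1 doubles it had 10.8 and 10.1 CPM at 4 °C and 0.11 and 0.22 CPM at 20 °C. In ets-4 it had 3.68 and 9.01 CPM at 4 °C and 0.16 and 0.088 CPM at 20 °C, and in wt 8.58 and 10.3 CPM at 4 °C and 0.32 and 0.05 CPM at 20 °C. The groups did not overlap in any strain. The log2 fold change was 3.21 (SE 0.64, edgeR adjusted p = 0.00267) in daf-16 doubles, 5.94 (SE 0.74, adjusted p = 0.000126) in pqm-1 doubles, 5.71 (SE 0.77, adjusted p = 0.000231) in ets-4 and 5.64 (SE 0.73, adjusted p = 0.000196) in wt. Its neighbours in the cluster on chromosome V moved less. The gene lys-1 was called in no strain, and lys-2 was called in pqm-1 doubles alone and only with the block (log2 fold change 1.76, SE 0.59, edgeR adjusted p = 0.0369). The log2 fold change of lys-2 was positive in all 4 strains, at 0.82 to 1.76 with the block and 1.07 to 1.83 without it. No difference of its cold response between strains was called.

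The other members that rose in each strain are saposin-like genes at lower or intermediate levels. The gene spp-31 rose by log2 fold changes of 1.62 to 1.75 over the 4 strains. In daf-16 doubles it had 2.65 and 3.47 CPM at 4 °C and 0.77 and 1.04 CPM at 20 °C, and in wt 2.09 and 1.65 CPM at 4 °C and 0.54 and 0.58 CPM at 20 °C. The gene spp-28 rose by 1.17 to 1.44, with 4.27 and 4.91 CPM at 4 °C and 2.13 and 1.94 CPM at 20 °C in daf-16 doubles. The gene spp-15, which overlaps C48E7.6 on the opposite strand, rose by 0.59 to 0.96, with 44.7 and 58.2 CPM at 4 °C and 24.7 and 29.3 CPM at 20 °C in daf-16 doubles. The highest edgeR adjusted p over the strains was 0.0114 for spp-31, 0.00282 for spp-28 and 0.0091 for spp-15. In wt the spp-31 call was lost without either 20 °C replicate or without 4 °C replicate 1 (edgeR adjusted p up to 0.0687), and in ets-4 without replicate 1 of either temperature (up to 0.0983). Without the block, further rises were called in single strains, those of spp-22 in daf-16 doubles (log2 fold change 0.86, SE 0.24, edgeR adjusted p = 0.0151) and of the invertebrate-type lysozyme gene ilys-4 in ets-4 (1.13, SE 0.38, adjusted p = 0.0413). With the block ilys-4 also rose in wt (0.74, SE 0.27, edgeR adjusted p = 0.0422). Without the block, the ilys-4 call in ets-4 was lost with any 1 of the 4 libraries left out (adjusted p from 0.0692 to 0.212).

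**Figure D3:**
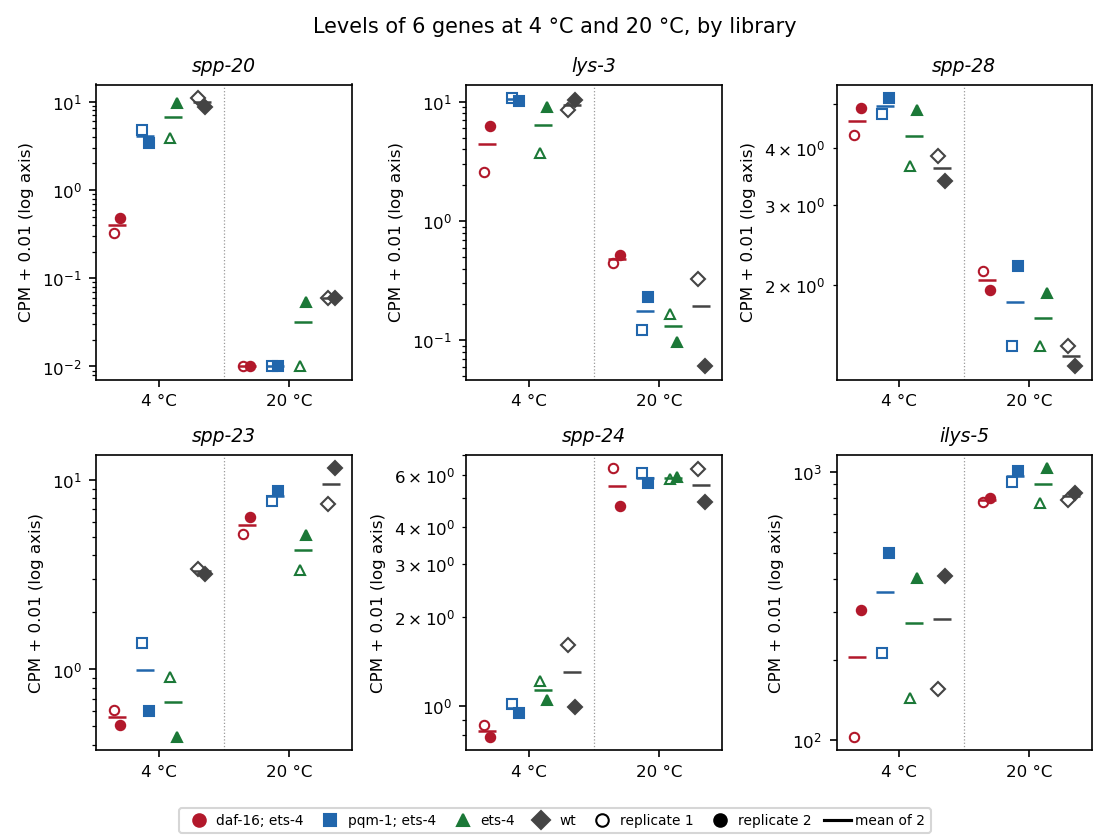
CPM + 0.01 on a log axis for spp-20, lys-3, spp-28, spp-23, spp-24 and ilys-5 in each library, with 4 °C left of 20 °C, strains by colour and symbol, open symbols for replicate 1, filled for replicate 2 and bars for the mean of 2. The 4 °C libraries of spp-20 lie between 0.31 and 11 CPM and its 20 °C libraries at or below 0.05 CPM, while spp-24 lies at 0.78 to 1.6 CPM at 4 °C and 4.7 to 6.3 CPM at 20 °C.

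The largest falls were in the saposin-like genes spp-23 and spp-24. The gene spp-23 (WBGene00021335, I, 1018843 to 1019157, plus strand), a neighbour of the abundant spp-17, had 0.6 and 0.5 CPM at 4 °C and 5.16 and 6.38 CPM at 20 °C in daf-16 doubles. In pqm-1 doubles it had 1.37 and 0.59 CPM at 4 °C and 7.72 and 8.72 CPM at 20 °C, in ets-4 0.9 and 0.43 CPM at 4 °C and 3.35 and 5.15 CPM at 20 °C, and in wt 3.4 and 3.2 CPM at 4 °C and 7.46 and 11.5 CPM at 20 °C. Every strain had both 4 °C libraries below both 20 °C libraries, and wt kept the highest level in the cold. The log2 fold change was -3.39 (SE 0.44, edgeR adjusted p = 0.000137) in daf-16 doubles, -3.06 (SE 0.42, adjusted p = 0.000216) in pqm-1 doubles, -2.68 (SE 0.43, adjusted p = 0.000633) in ets-4 and -1.52 (SE 0.39, adjusted p = 0.0125) in wt. The wt call was lost without 20 °C replicate 2 or without either 4 °C replicate (adjusted p up to 0.118). The gene spp-24 (WBGene00017748, II, 38558 to 39537, minus strand) had 0.78 to 1.6 CPM in the 8 libraries at 4 °C and 4.7 to 6.3 CPM in the 8 at 20 °C. It fell by 2.75 on the log2 scale in daf-16 doubles, 2.59 in pqm-1 doubles, 2.38 in ets-4 and 2.10 in wt (SE from 0.25 to 0.26, highest edgeR adjusted p = 9.18e-05).

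Of the remaining members that fell in each strain, spp-1 encodes a pore-forming caenopore and is a known DAF-16 target. It had 12.6 and 11.5 CPM at 4 °C and 37.5 and 25.4 CPM at 20 °C in daf-16 doubles, and 13.3 and 12.6 CPM at 4 °C and 31.7 and 24.0 CPM at 20 °C in pqm-1 doubles. In ets-4 it had 21.7 and 20.8 CPM at 4 °C and 54.1 and 39.1 CPM at 20 °C, and in wt 22.7 and 22 CPM at 4 °C and 47.2 and 40.8 CPM at 20 °C. It was lower in the cold in each pair of libraries, and fell by 1.39 (SE 0.2, edgeR adjusted p = 0.000306) in daf-16 doubles, 1.10 (SE 0.2, adjusted p = 0.00141) in pqm-1 doubles, 1.13 (SE 0.2, adjusted p = 0.00119) in ets-4 and 0.98 (SE 0.2, adjusted p = 0.00322) in wt on the log2 scale. The genes spp-16 and spp-8 had log2 fold changes of -1.86 to -1.11 and of -1.20 to -0.82 over the strains. The spp-1 and spp-16 exons overlap genes on the opposite strand (T07C4.3 and F32D8.7), as do those of lys-8 (C17G10.13). Without a stated strand setting of the counting, the reads of such partners cannot be told apart.

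The invertebrate-type lysozyme gene ilys-5 was the member with the most reads and fell in all 4 strains with the block. It had 103 and 305 CPM at 4 °C and 774 and 798 CPM at 20 °C in daf-16 doubles, and 212 and 499 CPM at 4 °C and 916 and 1010 CPM at 20 °C in pqm-1 doubles. In ets-4 it had 144 and 402 CPM at 4 °C and 769 and 1031 CPM at 20 °C, and in wt 156 and 409 CPM at 4 °C and 788 and 835 CPM at 20 °C. All 4 °C libraries were below all 20 °C libraries, and replicate 2 was above replicate 1 in every group. Without the block the call was made in daf-16 doubles alone (log2 fold change -1.95, SE 0.65, edgeR adjusted p = 0.037), and was lost without either 20 °C replicate or without 4 °C replicate 1 (adjusted p up to 0.216). With the block the log2 fold change was -2.14 in daf-16 doubles, -1.58 in pqm-1 doubles, -1.86 in ets-4 and -1.70 in wt (edgeR adjusted p from 0.00509 to 0.0197). The low-level ilys-2 also fell with the block in daf-16 doubles, ets-4 and wt (fitted log2 fold changes of -2.77 to -1.72 from few reads), with at most 0.43 CPM in any 4 °C library and 1.56 CPM in any 20 °C library.

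The caenopore genes of the cluster on chromosome X fell in part of the strains. The gene spp-3 had 22.7 and 24.0 CPM at 4 °C and 44.1 and 40.4 CPM at 20 °C in daf-16 doubles, with no overlap. It fell in daf-16 doubles (log2 fold change -0.85, SE 0.13, edgeR adjusted p = 0.00035), pqm-1 doubles (-0.52, SE 0.13, adjusted p = 0.00773) and ets-4 (-0.51, SE 0.13, adjusted p = 0.00959), and was not called in wt (-0.26, SE 0.13, adjusted p = 0.144). The gene spp-4 fell in daf-16 doubles without the block (-1.08, SE 0.32, adjusted p = 0.0223) and in all 4 strains with it (-1.04 to -0.58, highest adjusted p = 0.00261), and spp-5 fell in daf-16 doubles with the block (-0.5, SE 0.1, adjusted p = 0.00139).

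Among protist-type lysozymes other than lys-3, falls in the cold passed the test only with the block. The DAF-16 target lys-7 fell in daf-16 doubles (-0.69, SE 0.17, edgeR adjusted p = 0.00529), ets-4 (-0.54, SE 0.16, adjusted p = 0.0173) and wt (-0.70, SE 0.16, adjusted p = 0.00537), and had a log2 fold change of -0.06 in pqm-1 doubles (adjusted p = 0.766). The cluster on chromosome IV moved in the same direction: lys-4 and lys-5 fell in the 3 mutants, and lys-6 in both doubles, by 0.66 to 1.24 on the log2 scale with the block. In wt these genes had log2 fold changes with the block of -0.80 for lys-4, 0.14 for lys-5 and 0.08 for lys-6, with adjusted p from 0.0718 to 0.832. The DAF-16 target lys-8 was called in no strain, with 28.2 and 78.4 CPM at 4 °C and 73.5 and 79.9 CPM at 20 °C in daf-16 doubles and 34.8 and 74.5 CPM at 4 °C and 68.7 and 84.8 CPM at 20 °C in wt.

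Markers of intestine and epidermis moved with temperature. The 12 measured of 13 listed intestine genes summed to 22160 to 28990 CPM in the libraries at 4 °C and 39250 to 49580 CPM at 20 °C, with none at 0 in any library, and none of the 12 rose in any strain. Without the block 6 fell in daf-16 doubles, 5 in pqm-1 doubles, 5 in ets-4 and 4 in wt, beside 17.8% to 19.5% of all genes, and with the block 8, 8, 8 and 9 fell in the same order, beside 22.6% to 28.5% of all genes. Epidermis markers (6 genes) summed to 479 to 1207 CPM at 4 °C and 837 to 1993 CPM at 20 °C. Without the block 3 of them fell in each mutant strain and 1 in wt, and none rose. Pharynx markers summed to 154 to 485 CPM at 4 °C and 183 to 680 CPM at 20 °C. For body wall muscle the sums were 2782 to 5231 CPM and 2945 to 6592 CPM. Neuron markers summed to 313 to 380 CPM at 4 °C and 243 to 291 CPM at 20 °C. With the block 2 to 3 of 7 rose in each strain, and unc-119 fell in wt and both doubles. Germline and embryo markers summed to 6311 to 8255 CPM at 4 °C and 5111 to 8109 CPM at 20 °C. Sperm genes (msp) summed to 8.14 to 242 CPM at 4 °C and 10.7 to 574 CPM at 20 °C, and with the block 24 of 28 tested fell in daf-16 doubles, 21 in pqm-1 doubles and 0 in ets-4 and wt. The part of tissue makeup in the cold response of lysozyme and saposin-like genes was not tested.

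No difference of the cold response between strains was called. For daf-16 doubles against ets-4, 0 of 34 tested members were called by edgeR with or without the block, beside 0.0% of 15775 genes without the block and 0.038% with it, 1 member had an unadjusted p under 0.05 without the block and 3 with it (beside 2.71% and 6.68% of all genes), and DESeq2 called 0 (beside 0.0357% of 19585 genes). For pqm-1 doubles against ets-4, 0 were called in either fit (beside 0.0% of all genes in both), with 0 and 2 members at an unadjusted p under 0.05 (beside 3.55% and 7.19%), and 0 by DESeq2 (beside 0.046%). For ets-4 against wt, 0 were called in either fit (beside 0.0% and 0.00634%), with 0 and 1 at an unadjusted p under 0.05 (beside 1.53% and 3.03%), and 0 by DESeq2 (beside 0.00511%). The smaller rise of lys-3 in daf-16 doubles and the smaller fall of spp-23 in wt are therefore not shown to differ between strains.

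The comparison of ets-4 with wt asks which levels depend on ets-4. At 4 °C, 0 of 31 members were called by edgeR without the block (beside 0.0% of 14571 genes), while 3 had an unadjusted p under 0.05 (beside 13.9% of all genes) and DESeq2 called 2 (beside 1.19% of 19108 genes). With the block, lys-7 rose and 7 members fell, which is 25.8% of the 31 beside 9.7% of all genes (6.0% rose and 3.71% fell). Those that fell were spp-23, spp-3, lys-4, lys-6, spp-25, spp-4 and spp-5, so that 5 of the 7 were spp genes, which make up 19 of the 31 tested. The median log2 fold change of the 31 members was -0.07, beside 0.02 for all genes.

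The gene spp-3 (WBGene00004988, X, 7314969 to 7315353, minus strand), a caenopore gene, separated the mutants from wt. At 4 °C it had 32.4 and 29.2 CPM in ets-4 and 93.5 and 102 CPM in wt, and both doubles lay with ets-4, between 22.7 and 35.3 CPM. At 20 °C it had 42.4 and 44.9 CPM in the libraries labelled ets-4 and 111 and 123 CPM in wt. The log2 fold change of ets-4 against wt was -1.68 at 4 °C (SE 0.13, edgeR adjusted p = 0.0596 without the block and 0.00168 with it) and -1.42 at 20 °C (SE 0.13, adjusted p = 0.00142). The 20 °C call was lost without ets-4 replicate 1 (adjusted p = 0.0618). The neighbouring gene spp-2 of the same cluster had 16.3 and 23.7 CPM in ets-4 and 13.7 and 23.3 CPM in wt at 4 °C, while spp-4 fell by 0.68 (SE 0.12, adjusted p = 0.0146) and spp-5 by 0.48 (SE 0.1, adjusted p = 0.0362) with the block. By the 2-fold rule, 2 members were called for ets-4 against wt at 4 °C (beside 0.802% of 20447 genes) and 3 at 20 °C (beside 0.748%). For spp-23, levels at 4 °C were 0.9 and 0.43 CPM in ets-4 and 3.4 and 3.2 CPM in wt (log2 fold change -2.39, SE 0.34, adjusted p = 0.00631 with the block and 0.229 without).

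Protist-type lysozymes went in both directions in ets-4 against wt at 4 °C. The gene lys-7 had 123 and 211 CPM in ets-4 and 69.5 and 111 CPM in wt and rose with the block (log2 fold change 0.86, SE 0.12, edgeR adjusted p = 0.0165, against 0.464 without). The gene lys-4 had 27.6 and 138 CPM in ets-4 and 94.9 and 280 CPM in wt, and fell with the block (-1.39, SE 0.19, adjusted p = 0.0253). The gene lys-6 had 1.74 and 4.10 CPM in ets-4 and 5.18 and 7.38 CPM in wt (-1.21, SE 0.25, adjusted p = 0.0243 with the block). The groups overlapped for lys-4, where the difference lay within same-numbered pairs, and not for lys-7 and lys-6. At 20 °C, 1 of 34 members was called without the block (spp-3, beside 0.133% of 15775 genes), 3 had an unadjusted p under 0.05 (beside 7.82% of all genes) and DESeq2 called 1 (beside 0.613% of 19585 genes). With the block 2 were called (beside 1.42%, of which 1.17% rose and 0.247% fell), the second being lys-5, with 2.05 and 5.92 CPM in the libraries labelled ets-4 and 0.89 and 2.52 CPM in wt (log2 fold change 1.22, SE 0.23, adjusted p = 0.0233 with the block).

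The comparison of daf-16 doubles with ets-4 asks which levels depend on daf-16 in the ets-4 background. At 4 °C, spp-1 was the only member called without the block, 1 of 31 (3.23%) beside 0.158% of 14571 genes, while 8 had an unadjusted p under 0.05 (beside 8.72% of all genes) and DESeq2 called 4 (beside 0.979% of 19108 genes). It had 12.6 and 11.5 CPM in daf-16 doubles and 21.7 and 20.8 CPM in ets-4 (log2 fold change -0.83, SE 0.09, edgeR adjusted p = 0.0451). The call was lost with any 1 of the 4 libraries left out (adjusted p from 0.27 to 0.303). With the block, 1 member rose and 7 fell, 25.8% beside 3.86% of all genes (1.74% rose and 2.11% fell), with a median of -0.27 for the 31 members beside 0.01 for all genes. Those that fell were spp-20, lys-10, lys-7, spp-1, spp-4, spp-5 and ilys-5, and spp-22 rose.

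The lysozyme gene lys-7 (WBGene00003096, V, 3481432 to 3482600, minus strand) had 22.9 and 53.8 CPM in daf-16 doubles and 123 and 211 CPM in ets-4 at 4 °C, with no overlap. At 20 °C it had 43.1 and 77.0 CPM in libraries labelled as daf-16 doubles and 184 and 299 CPM in those labelled ets-4, again with no overlap. It fell with the block by 2.18 (SE 0.13, edgeR adjusted p = 0.00139) at 4 °C and by 2.03 (SE 0.17, adjusted p = 0.000771) at 20 °C on the log2 scale, against adjusted p of 0.346 and 0.31 without it. In wt, lys-7 lay between these levels, at 69.5 and 111 CPM at 4 °C and 128 and 153 CPM at 20 °C. The study's 2-fold rule called lys-7 at both temperatures, as 1 of 3 members at 4 °C (beside 1.19% of 20447 genes) and 1 of 2 at 20 °C (beside 4.82%).

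The second lysozyme gene in this comparison, lys-10 (WBGene00003099, IV, 8332826 to 8333518, plus strand), was at low levels. It had 0.11 and 0.61 CPM in daf-16 doubles and 1.01 and 2.61 CPM in ets-4 at 4 °C, and 0.062 and 0.41 CPM in libraries labelled as daf-16 doubles and 0.95 and 6.2 CPM in those labelled ets-4 at 20 °C. It fell with the block at 4 °C (-2.44, SE 0.41, edgeR adjusted p = 0.0154) and at 20 °C (-3.78, SE 0.51, adjusted p = 0.00476). Replicate 2 was above replicate 1 in each group, and without the block the adjusted p was 0.661 and 0.386. The cold-raised gene spp-20 had 0.31 and 0.47 CPM in daf-16 doubles and 3.82 and 9.54 CPM in ets-4 at 4 °C (log2 fold change -4.06, SE 0.61, adjusted p = 0.0351 with the block and 0.0692 without). In the opposite direction, spp-22 (WBGene00044283, X, 7211705 to 7213956, plus strand) had 7.69 and 10.1 CPM in daf-16 doubles and 3.31 and 5.11 CPM in ets-4 at 4 °C (1.08, SE 0.18, adjusted p = 0.0154 with the block and 0.278 without).

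**Figure D4:**
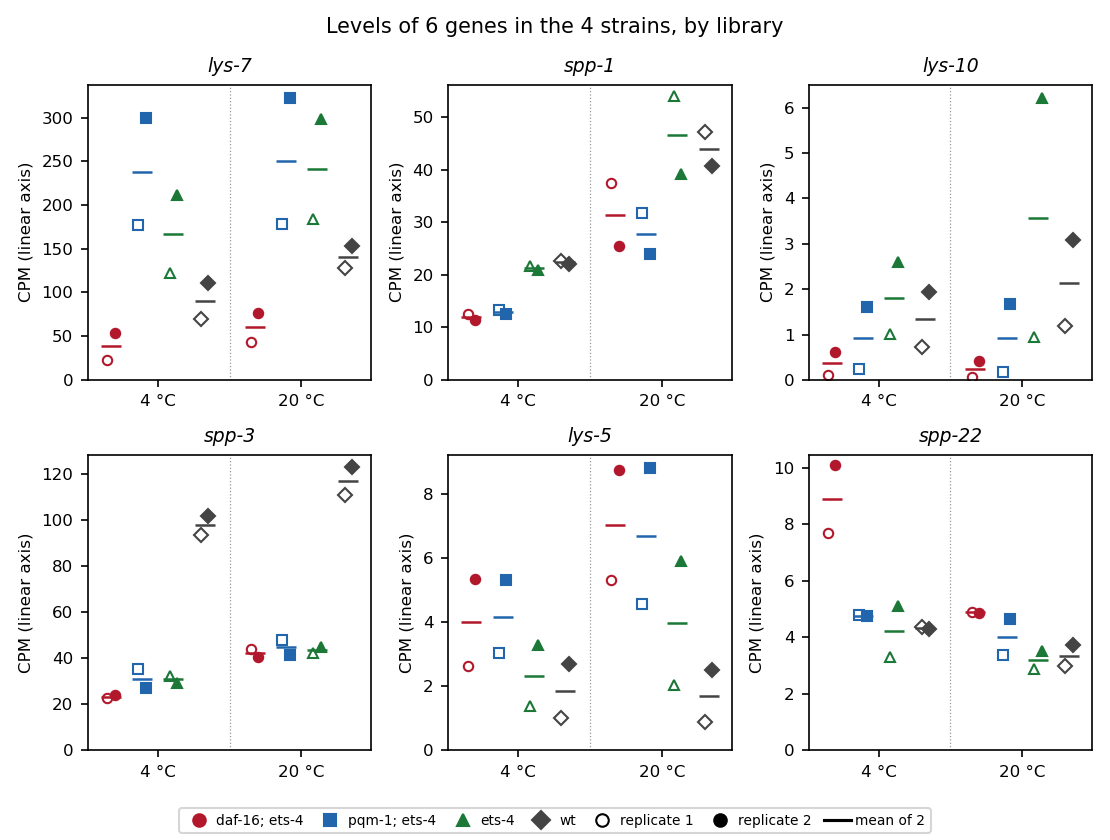
CPM on a linear axis from 0 for lys-7, spp-1, lys-10, spp-3, lys-5 and spp-22 in each library, with 4 °C left of 20 °C, strains by colour and symbol, open symbols for replicate 1, filled for replicate 2 and bars for the mean of 2. For lys-7, daf-16 doubles lie at 22.9 to 77.0 CPM, below the other strains at each temperature, and for spp-3 the mutants lie at 22.7 to 48.0 CPM and wt at 93.5 to 123 CPM.

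Not every DAF-16 target followed this direction. The gene lys-8 had 28.2 and 78.4 CPM in daf-16 doubles and 29.6 and 73.0 CPM in ets-4 at 4 °C, and 73.5 and 79.9 CPM in libraries labelled as daf-16 doubles and 66.6 and 80.4 CPM in those labelled ets-4 at 20 °C. Its groups overlapped, with a log2 fold change of 0.05 at 4 °C (SE 0.73, edgeR adjusted p = 0.989) and 0.06 at 20 °C (SE 0.57, adjusted p = 0.973). The lys-8 exons overlap C17G10.13 on the opposite strand, and reads of these partners cannot be told apart here. The gene spp-12 had too few reads for the test at 4 °C, with 0 and 0 reads in daf-16 doubles, 2 and 0 in pqm-1 doubles, 4 and 0 in ets-4 and 7 and 13 in wt. At 20 °C it had 2 and 1, 3 and 1, and 1 and 3 reads in libraries labelled as daf-16 doubles, pqm-1 doubles and ets-4, and 10 and 12 in wt. At 20 °C, 0 of 34 members were called for daf-16 doubles against ets-4 without the block (beside 0.0824% of 15775 genes), 7 had an unadjusted p under 0.05 (beside 12.9% of all genes) and DESeq2 called 2 (beside 0.705% of 19585 genes). With the block 2 rose (lys-5 and spp-8) and 4 fell (lys-10, lys-7, spp-1 and spp-15), which is 17.6% beside 9.8% of all genes (6.5% rose and 3.3% fell).

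The comparison of pqm-1 doubles with ets-4 asks the same of pqm-1. Without the block 0 of 31 members were called at 4 °C (beside 0.048% of 14571 genes), 2 had an unadjusted p under 0.05 (beside 7.47% of all genes) and DESeq2 called 1 (beside 0.649% of 19108 genes). With the block 5 rose (spp-2, lys-5, spp-25, lys-8 and ilys-5) and 2 fell (ilys-4 and spp-1), which is 22.6% beside 5.9% of all genes (3.8% rose and 2.1% fell). The caenopore gene spp-1 had 13.3 and 12.6 CPM in pqm-1 doubles and 21.7 and 20.8 CPM in ets-4 (log2 fold change -0.72, SE 0.08, edgeR adjusted p = 0.00418 with the block and 0.113 without). The lysozyme gene lys-8 had 43.7 and 103 CPM in pqm-1 doubles and 29.6 and 73.0 CPM in ets-4 (0.52, SE 0.08, adjusted p = 0.0113 with the block and 0.815 without). The gene lys-5 had 3.03 and 5.31 CPM in pqm-1 doubles and 1.38 and 3.29 CPM in ets-4 (0.89, SE 0.2, adjusted p = 0.0415 with the block). For lys-8 and lys-5 the groups overlapped. The gene ilys-5, which lies near ets-4, had 212 and 499 CPM in pqm-1 doubles, 103 and 305 CPM in daf-16 doubles and 144 and 402 CPM in ets-4, with overlap between the strains, and a log2 fold change with the block of 0.43 for pqm-1 doubles (edgeR adjusted p = 0.0178) and -0.44 for daf-16 doubles (adjusted p = 0.0153) against ets-4.

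At 20 °C, 0 of 34 members were called for pqm-1 doubles against ets-4 without the block (beside 0.0444% of 15775 genes), 4 had an unadjusted p under 0.05 (beside 17.9% of all genes) and DESeq2 called 1 (beside 1.26% of 19585 genes). With the block 4 rose (lys-5, spp-2, spp-25 and spp-16) and 3 fell (lys-10, spp-1 and spp-5), which is 20.6% beside 17% of all genes (10.4% rose and 6.62% fell), a share near the background. The gene spp-1 had 31.7 and 24.0 CPM in libraries labelled as pqm-1 doubles and 54.1 and 39.1 CPM in those labelled ets-4 (-0.74, SE 0.13, edgeR adjusted p = 0.0079 with the block and 0.261 without). The gene lys-10 had 0.18 and 1.68 CPM in libraries labelled as pqm-1 doubles and 0.95 and 6.2 CPM in those labelled ets-4 (-1.97, SE 0.42, adjusted p = 0.013 with the block and 0.416 without). The 2-fold rule called 0 members for pqm-1 doubles at 4 °C (beside 0.978% of 20447 genes) and 1 at 20 °C (beside 3.43%). Both comparisons with ets-4 use the same ets-4 libraries, so the falls of spp-1 and lys-10 in the doubles are not independent of each other.

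Tissue markers also differed between strains. Pharynx markers (10 genes) summed to 381 and 451 CPM in daf-16 doubles, 319 and 485 CPM in pqm-1 doubles, 244 and 317 CPM in ets-4 and 154 and 155 CPM in wt at 4 °C, and 1 of them was at 0 in 3 of the libraries at 20 °C. Body wall muscle markers (6 genes, none at 0) summed to 3719 to 5231 CPM in the mutants and 2782 and 3372 CPM in wt at 4 °C, and epidermis markers (6 genes) to 623 to 1207 CPM in the mutants and 479 and 665 CPM in wt. Sperm genes summed to 40.6 to 242 CPM in the doubles, 24.6 and 56.0 CPM in ets-4 and 8.14 and 34.8 CPM in wt at 4 °C. The summed intestine markers at 4 °C differed less, with 22160 and 25580 CPM in daf-16 doubles, 26850 and 27390 CPM in pqm-1 doubles, 28500 and 28990 CPM in ets-4 and 25490 and 25210 CPM in wt. Single intestine markers differed in both directions, which the sum does not show. In ets-4 against wt with the block, 1 of 12 tested rose (elt-7) and 2 fell (asp-1 and pho-1), beside 6.0% and 3.71% of all genes. Against ets-4, 1 rose in daf-16 doubles (pho-1) and 2 in pqm-1 doubles (asp-1 and vha-6), beside 1.74% and 3.8%. The low-level elt-2, not called here, had mean levels of 3.09 CPM in wt and 4.30 to 7.24 CPM in the mutants. At 20 °C, pharynx markers summed to 434 and 615 CPM in libraries labelled as daf-16 doubles, 467 and 680 CPM in those labelled as pqm-1 doubles, 289 and 344 CPM in those labelled ets-4 and 183 and 184 CPM in wt. Body wall muscle markers summed to 4976 to 6592 CPM in libraries labelled as doubles, 4128 and 4139 CPM in those labelled ets-4 and 2945 and 3108 CPM in wt at 20 °C. Epidermis markers summed to 1698 to 1993 CPM in libraries labelled as doubles, 1142 and 1253 CPM in those labelled ets-4 and 837 and 1031 CPM in wt. All mutant libraries thus lay above both wt libraries at 20 °C for these 3 lists, with the doubles highest. Sperm genes summed to 326 and 380 CPM in libraries labelled as daf-16 doubles, 141 and 574 CPM in those labelled as pqm-1 doubles, 36.5 and 77.2 CPM in those labelled ets-4 and 10.7 and 55.9 CPM in wt. With the block, 25 of 28 tested sperm genes rose at 20 °C in each double against ets-4, beside 6.5% of all genes for daf-16 doubles and 10.4% for pqm-1 doubles. At 4 °C, 3 of 26 rose in daf-16 doubles and 13 in pqm-1 doubles, beside 1.74% and 3.8% of all genes. Summed intestine markers at 20 °C overlapped, with 39250 to 49580 CPM in the libraries labelled as mutants and 40300 and 40520 CPM in wt. The part of these markers in the strain differences above was not tested.

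Of the 34 tested members, 8 were called in no comparison, with or without the block: lys-1, spp-10, spp-12, spp-13, spp-14, spp-17, spp-18 and spp-19. They include some of the most abundant ones. The share of all genes called in no comparison was not counted. The prosaposin-like gene spp-10 had log2 fold changes of 0.02 to 0.07 in the cold, and the most abundant member, spp-14, 0.12 to 0.24. The gene spp-17 had 193 and 90.1 CPM in daf-16 doubles, 201 and 82.5 CPM in pqm-1 doubles, 237 and 152 CPM in ets-4 and 295 and 277 CPM in wt at 4 °C. All of its mutant libraries lay below both wt libraries at 4 °C, but its replicates differed widely and no test passed.

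Many members differed in 1 direction between the replicates. Of the 34 tested members, 13 were higher in replicate 2 than in replicate 1 in all 8 groups (38.2%), beside 12.3% of the 14691 genes with a mean count of at least 10. Lower in all 8 groups were 4 of the 34 members, beside 1694 of the 14691 genes, which is near the same share. The members with the largest shift were ilys-2 (median log2 ratio 2.06), lys-4 (1.76), lys-10 (1.70), spp-18 (1.21), lys-2 (1.11) and lys-5 (1.10), and the lysozyme genes thus led this list. In the other direction spp-17 (-0.72), spp-4 (-0.53), the lysozyme gene ilys-4 (-0.40) and spp-5 (-0.35) had lower medians in replicate 2. Of these, ilys-4 was higher in replicate 2 in 1 of the 8 groups. At 4 °C, for example, lys-4 had 24.9 and 114 CPM in daf-16 doubles, 57.5 and 223 CPM in pqm-1 doubles, 27.6 and 138 CPM in ets-4 and 94.9 and 280 CPM in wt. What differed between the replicates is not given in the sources used here, and summed sperm genes were also higher in replicate 2 in every group.

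**Figure D5:**
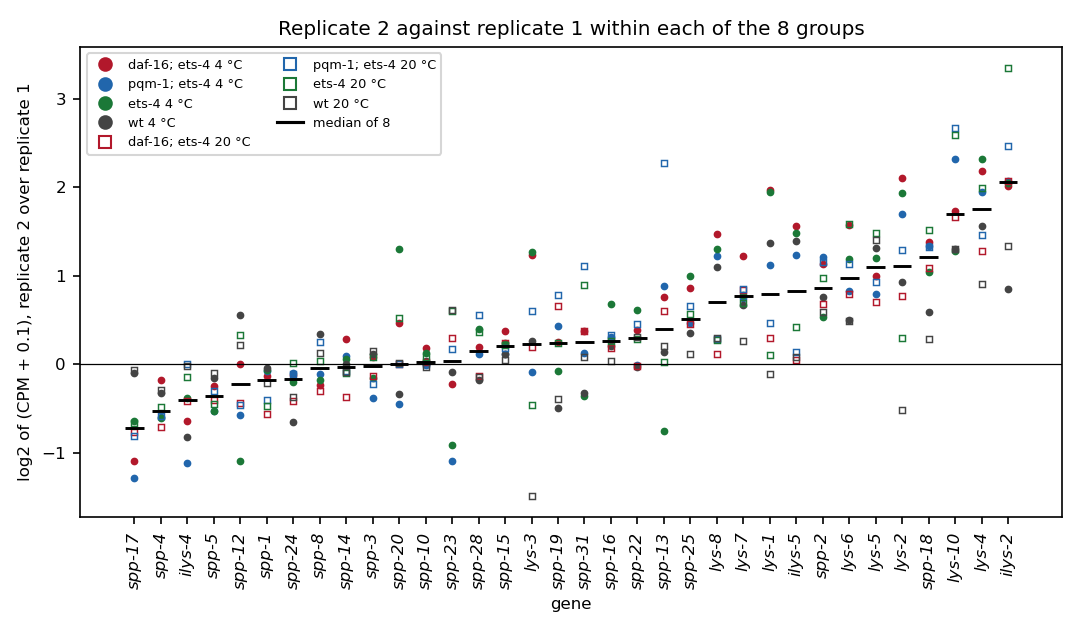
Log2 ratio of replicate 2 over replicate 1, from CPM + 0.1, for each of the 34 tested genes (horizontal axis, ordered by median), with a symbol for each of the 8 groups and a bar for the median. The medians run from -0.72 for spp-17 to 2.06 for ilys-2, and lysozyme genes make up most of the right end.

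Other genes of the pathway were looked at by list. Of 29 regulators of innate immunity and digestion, all tested, 15 rose and 3 fell at 4 °C in daf-16 doubles, 14 rose and 3 fell in pqm-1 doubles, 12 rose and 3 fell in ets-4 and 14 rose and 2 fell in wt without the block. Over all genes 12.9% to 19% rose and 17.8% to 19.5% fell. With the block 17 rose and 4 fell in daf-16 doubles, 16 and 4 in pqm-1 doubles, 17 and 4 in ets-4 and 19 and 5 in wt, beside 19% to 25.9% of all genes that rose and 22.6% to 28.5% that fell. The median log2 fold change of this list was 0.62, 0.54, 0.44 and 0.38 in the same order. The list includes the mutated genes ets-4, daf-16 and pqm-1, so its counts cover altered genes too. With the block, ets-4 was among those that fell in the 3 mutant strains and among those that rose in wt. The regulators that rose included pqm-1 itself, also in the strain mutated in it. It rose in daf-16 doubles (2.57, SE 0.42, edgeR adjusted p = 0.000884), in pqm-1 doubles (3.72, SE 0.45, adjusted p = 0.000125), in ets-4 (3.2, SE 0.44, adjusted p = 0.000291) and in wt (3.53, SE 0.44, adjusted p = 0.000186). The intestinal GATA factor gene elt-2 fell in all 4 strains with the block, by 1.43 in daf-16 doubles, 1.14 in pqm-1 doubles, 1.63 in ets-4 and 1.66 in wt on the log2 scale (highest edgeR adjusted p = 0.00106), and had 2.25 to 8.86 CPM at 4 °C and 7.58 to 20.0 CPM at 20 °C. Of 36 other secreted immune effectors, 33 were tested, of which 8 rose and 5 fell in daf-16 doubles, 8 rose and 6 fell in pqm-1 doubles, 11 rose and 4 fell in ets-4 and 7 rose and 3 fell in wt, with median log2 fold changes of -0.17, 0.03, 0.05 and -0.19 in the same order. These counts stand beside the same 12.9% to 19% of all genes that rose and 17.8% to 19.5% that fell. With the block 9 effectors rose and 10 fell in each double, 12 rose and 8 fell in ets-4, and 10 rose and 9 fell in wt, beside 19% to 25.9% and 22.6% to 28.5% of all genes.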

How the data were processed

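Poly-A RNA of 16 whole-animal samples (8 groups of 2) was sequenced for 50 cycles, single end, from a stranded library kit. Per the authors' methods, STAR placed the reads on WBcel235 with up to 3 mismatches, reads with a single position were retained, and the deposited values are raw counts over the exons of protein-coding genes. Near-identical copies lose reads under this rule. The annotation release and the strand setting of the counting are not given in the sources used here. The table held 20447 genes, of which 20159 (98.6%) were found in Ensembl release 115, the source of positions, overlaps and exon lengths. All table columns were used. No sequences were printed and no promoter motifs were searched here.

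Counts were tested in R 4.3.3 with edgeR 4.0.16 (TMM, filterByExpr, robust quasi-likelihood fit, Benjamini-Hochberg threshold 0.05) over 16 libraries (15775 genes) for cold, 20 °C and cold-response comparisons, and over the 8 libraries at 4 °C (14571 genes) for strain comparisons there. SE is the log2 fold change over the square root of F. The study's 2-fold rule was also applied. The replicate numbers of the labels were taken as pairs because deviations from group means correlated in each of 28 pairs of groups (median r 0.506, lowest 0.252). The study calls its RNA-seq replicates biological, but how they were separated in culture or time is not given in the sources used here, and p-values measure the spread between these samples. The script was tested on simulated data with known folds.

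Alternatives were RLE size factors, no filter, a mean count of at least 50, DESeq2 1.42.0, the replicate block, other sets of libraries, each library left out, and for the 2-fold rule a pseudocount of 1 and crossed replicate numbers. Members, gene lists and tests were chosen with earlier results of these data known. Named genes were the 3 most abundant per family by CPM per kb, up to 5 called members with the largest rise and fall per comparison with or without the block, the known DAF-16 targets, members with a called difference of the cold response, and the mutated genes. Members named beyond that rule, for their place in a cluster or as examples, were chosen after their values were seen. Python 3.11.15, pandas 2.3.3, scipy 1.17.1 and matplotlib 3.10.9 were used for summaries and figures.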

Additional observations from a re-analysis of the deposited data

How the results depend on the processing

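With 2 libraries per group, the strain comparisons depended most on the replicate block. With the block, the number of called members was 17 in place of 11 for the cold response of pqm-1 doubles. At 4 °C it was 8 in place of 0 for ets-4 against wt, 8 in place of 1 for daf-16 doubles against ets-4, and 7 in place of 0 for pqm-1 doubles against ets-4. At 20 °C it was 2 in place of 1, 6 in place of 0 and 7 in place of 0 in the same order. Among the members, the block changed no call other than those given with it above.

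DESeq2 called 2, 4 and 1 members at 4 °C in that order of comparisons, and 2 and 1 for daf-16 and pqm-1 doubles at 20 °C. For ets-4 against wt at 4 °C, 1 member was called without the filter, 1 with a mean count of at least 50 and 1 over all 16 libraries. Over all genes, 5 rose and 4 fell of 19108 tested without the filter. With a mean count of at least 50, 2 rose and 2 fell of 10793. Over all 16 libraries, 32 rose and 10 fell of 15775. Over all 16 libraries with the replicate block, an alternative chosen after seeing the data, 6, 7 and 2 members were called at 4 °C. Of 15775 genes, 410 rose and 89 fell, 103 rose and 172 fell, and 163 rose and 76 fell in the same order. The 8 libraries at 20 °C with the replicate block gave 2, 4 and 6. Of 15405 genes, 155 rose and 44 fell, 562 rose and 107 fell, and 1188 rose and 249 fell in that fit. Apart from the block and the number of libraries, which set the construction of the fit, the cause was not tested.

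For the 2-fold rule, crossed replicate numbers gave 5 members in place of 8 for the cold response of ets-4, 6 in place of 11 for that of pqm-1 doubles, 1 in place of 3 for ets-4 against wt at 20 °C and 0 in place of 1 for pqm-1 doubles at 20 °C. A pseudocount of 1 gave 4 in place of 2 for ets-4 against wt at 4 °C, 5 in place of 3 at 20 °C, and 3 in place of 1 for pqm-1 doubles at 20 °C. Over all genes it gave 544 rises and 153 falls, 430 and 193, and 1262 and 144 in the same order.

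Each library was left out in turn, which was run without the block and left 1 library in its group. The number of members called in such a fit is not given here. Of 34 named calls, 27 held with every library left out and 7 were lost with at least 1. The 34 did not include the cold calls of spp-1, spp-3, spp-4 and spp-22. Nor did they include those of spp-8 outside pqm-1 doubles and of spp-15 outside daf-16 doubles. The log2 fold changes that turned sign were all uncalled without the block. Called with it were ilys-2 in the cold in ets-4 and daf-16 doubles, and lys-8 and ilys-5 in pqm-1 doubles at 4 °C. The same held for lys-10 in pqm-1 doubles at 20 °C. No call made only with the block was followed with a library left out. For ilys-2 in the cold, the values with 1 library left out ran from -4.74 to 1.84 in ets-4 (positive without 20 °C replicate 2) and from -7.31 to 0.27 in daf-16 doubles (likewise). For lys-8 they ran from -0.86 to 0.85 in daf-16 doubles at 4 °C (negative at -0.45 without ets-4 replicate 1 and at -0.86 without replicate 2 of the doubles), from -0.23 to 1.31 in pqm-1 doubles at 4 °C (negative without their replicate 2) and from -0.083 to 0.22 in daf-16 doubles at 20 °C (negative without ets-4 replicate 1). For ilys-5 in pqm-1 doubles at 4 °C they ran from -0.35 to 1.31, with -0.35 without replicate 2 of the doubles and -0.17 without ets-4 replicate 1. For spp-12 in daf-16 doubles at 20 °C they ran from -1.28 to 0.27, with 0.23 without ets-4 replicate 2 and 0.27 without replicate 2 of the doubles, and for lys-10 in pqm-1 doubles at 20 °C from -4.30 to 0.002 (positive without ets-4 replicate 2).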
